A study of Mus musculus with 6 samples.

Results

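The genes examined here drive or hold back the passage of a cell from the G1 phase into DNA replication. They are the D cyclin genes Ccnd1, Ccnd2 and Ccnd3, the cyclin E gene Ccne1, the kinase genes Cdk4 and Cdk6, and the inhibitor genes Cdkn1b, Cdkn2a, Cdkn2b and Cdkn2c. The 10 genes were chosen by name, with earlier results of these data known. Every probe set that the platform annotation assigns to 1 of them alone was taken, which gave 26 of 45037 probe sets. A gene was read by its brightest probe set, the one with the highest mean over all arrays, as were the 18193 genes with at least 1 such probe set. The samples were mouse embryonic stem (ES) cells of strain 129SV on Affymetrix arrays. There were 3 arrays of wild-type cells and 3 of cells with a knockout of Med23, which encodes a component of Mediator, the coactivator between sequence-specific factors and RNA polymerase II. Both groups were harvested from ordinary ES cell culture after 24 hours in fresh complete medium. The replicates are called biological, but the number of clones or passages behind them and the way the knockout was made are not stated in the labels, so p-values here rest on the variation among 6 arrays, which may be technical.

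D cyclins bind CDK4 or CDK6, and the active kinases phosphorylate the retinoblastoma protein RB and its relatives p107 and p130. Phosphorylated RB releases E2F factors, which switch on genes for DNA replication, cyclin E among them. The INK4 proteins block CDK4 and CDK6 directly, whereas p27, encoded by Cdkn1b, inhibits mainly cyclin E and cyclin A complexes with CDK2. Mouse ES cells are known for a short G1 phase, low D cyclin levels and cyclin E-CDK2 activity that varies little over the cycle, and D cyclins rise as the cells differentiate.

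The medians of the arrays lay between 4.61 and 4.64 (log2). Med23 had a mean of 8.88 ± 0.05 in wild-type arrays and 7.37 ± 0.04 in knockout arrays (log2; SD, n = 3), lower on every knockout array, with a log2 fold change of -1.52 (SE 0.06). The 10 markers of pluripotent cells had a median log2 fold change of -0.01. Among them 3 fell, led by the pluripotency factor gene Klf4 (-0.63) and Fgf4 (-0.37), while 10.4% of all genes were lower and 8.53% higher. The other 7 did not pass the test, with log2 fold changes from -0.08 for Dppa5a to 0.37 for Esrrb. Wild-type replicate 1 stood apart from its group, with 752 probe sets lying 2-fold or more under the average of its fellows. The Y-linked genes Eif2s3y (log2 fold change 6.83) and Uba1y (6.20) were high in the knockout arrays only, so another difference between the cell lines cannot be told apart from the loss of Med23. All 10 primitive endoderm markers fell.

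Of the 4 G1 cyclin genes, Ccnd1, Ccnd2 and Ccne1 fell in the knockout. Ccnd2 showed the largest fall of the 10 genes, 6.37-fold, while Ccnd1 fell 1.63-fold and Ccne1 1.52-fold. Ccnd3 and the kinase gene Cdk4 did not pass the test. Among the INK4 genes, the neighbours Cdkn2a and Cdkn2b went in opposite directions, 1.42-fold up and 1.45-fold down. In all, 4 of the 10 genes fell, 1 rose and 5 did not pass (limma, Benjamini-Hochberg adjusted p under 0.05 over all probe sets), against a background of 10.4% of all genes lower and 8.53% higher. The median log2 fold change was -0.09 over the 10 genes and 0.02 over all 18193 genes. Over single probe sets, 13 of 26 fell, 3 rose and 10 did not pass, with 7.43% of all probe sets lower and 6.69% higher. The groups did not overlap for 5 of the 10 genes with lower and 4 with higher knockout values, against 19.5% and 21.4% of all genes, and for 14 and 9 of the 26 probe sets, against 14.8% and 18.0%. Of the 13 probe sets that fell, 7 read Ccnd2, so probe sets are not independent evidence. Leaving out wild-type replicate 1 or 2 gave 2 genes that rose, and leaving out knockout replicate 2 gave 0. For probe sets, 0 rose once knockout replicate 2 was dropped, and 1 rose once knockout replicate 3 was dropped or with the replicate block.

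**Figure D1:**
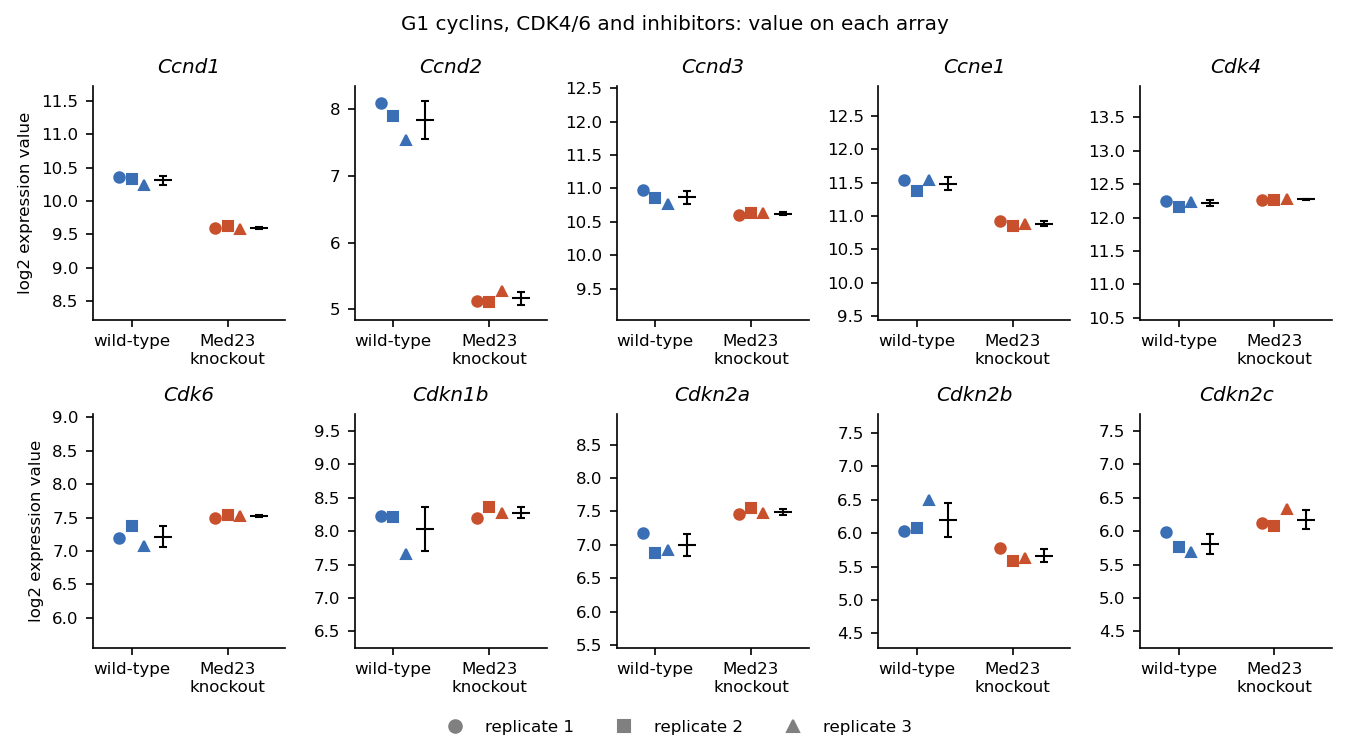
Log2 expression value on each array (vertical axis) for the brightest probe set of each of the 10 genes, in wild-type (blue) and Med23 knockout (orange) cells, with bars for the group mean and SD (n = 3). Every panel spans the same range of log2 units, so distances can be compared between panels but heights cannot; the wild-type and knockout arrays of Ccnd2 are 2.67 apart in their means, those of Cdk4 0.05.

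Ccnd2 encodes cyclin D2, a growth factor-responsive D cyclin. Its brightest probe set read 8.08, 7.90 and 7.53 (log2) on the wild-type arrays and 5.12, 5.10 and 5.28 on the knockout arrays, each in the order of replicates 1 to 3, as in all such sentences that follow. The lowest wild-type array thus lay far above the highest knockout array, and the spread was wider in the wild-type group. The means were 7.84 ± 0.28 and 5.17 ± 0.10 (SD, n = 3), a difference of -2.67 log2 units (SE 0.14; limma, adjusted p = 6.50e-05). Without wild-type replicate 1 the log2 fold change was -2.55. Of all 18193 genes, 23, Ccnd2 included, passed the test with a fall at least as large (0.126%).

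All 7 probe sets of Ccnd2 fell and none had overlapping groups. The 5 brightest had log2 fold changes between -2.21 and -2.80, and their wild-type means ran from 6.01 to 7.84. The remaining pair had wild-type means of 4.26 and 2.81, under the overall probe set median of 4.62, and the log2 fold changes were -1.29 and -0.36. The fall was thus smallest on the dimmest probe sets. Averaging all 7 gave a log2 fold change of -2.03. Detection calls were not used here, and whether the knockout values near 5 lie above background was not tested.

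Ccnd1 encodes cyclin D1, a target of WNT and mitogen signals in many cells. Its brightest probe set read 10.36, 10.33 and 10.23 on the wild-type arrays and 9.59, 9.62 and 9.58 on the knockout arrays. Every knockout array was below every wild-type array, with little spread in either group. Ccnd1 thus differed by -0.71 (SE 0.06, adjusted p = 0.000560), and the other probe sets gave -0.79 and -0.60, both past the test.

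Ccnd3 encodes cyclin D3. Its brightest probe set read 10.97, 10.86 and 10.77 on the wild-type arrays and 10.60, 10.64 and 10.63 on the knockout arrays. The groups did not overlap, but the log2 fold change of -0.24 (95% interval -0.41 to -0.07) did not pass (adjusted p = 0.0709). It passed in 4 of the 13 alternative fits, among them that without wild-type replicate 3 (adjusted p = 0.04996). A dimmer probe set gave -0.22 with overlapping groups, and the dimmest, with a mean under the overall median, gave 0.28.

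Whether the D cyclins changed unequally was examined as the difference between 2 genes on the same array. Ccnd2 minus Ccnd1 was -2.28, -2.43 and -2.70 on the wild-type arrays and -4.47, -4.52 and -4.31 on the knockout arrays. The knockout mean of this measure thus lay at -1.96 log2 units (SE 0.14) relative to wild-type. The same measure was -2.43 (SE 0.12) for Ccnd2 against Ccnd3 and -0.47 (SE 0.03) for Ccnd1 against Ccnd3, and the groups overlapped in none of these 3 pairs. For Ccnd1 against Ccne1 it was -0.11 (SE 0.08), with overlapping groups. The exact two-sided permutation p was 0.1 for the first 3 pairs, the smallest that 3 against 3 arrays can give, and 0.3 for the last. Adjusted over the 4 pairs the values were 0.133 and 0.3.

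Ccne1 encodes cyclin E1, the partner of CDK2 at the start of S phase. Its brightest probe set read 11.54, 11.38 and 11.53 on the wild-type arrays and 10.92, 10.85 and 10.88 on the knockout arrays. The groups were clearly apart, and every knockout array was below every wild-type array. For Ccne1 the difference was -0.60 (SE 0.07, adjusted p = 0.00178), and the other probe set gave -0.48, also past the test. The related cyclin E2 gene Ccne2 had a log2 fold change of -0.35 (95% interval -0.97 to 0.26), which did not pass.

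Markers of other cells that an ES culture can hold were read in the same comparison, and those of primitive endoderm fell in 10 of 10 cases. The summed linear level of the 10 primitive endoderm markers was 2441 to 3340 in wild-type and 451 to 488 in knockout arrays, and their median log2 fold change was -2.52, led by Col4a1 (-3.41) and Dab2 (-3.38). Within the wild-type group the sum was highest in replicate 1 and lowest in replicate 3, the order of the brightest Ccnd2 probe set. This order was not particular to these markers, as the summed pluripotent cell markers had it too (60613, 59125 and 56532). Nor did every Ccnd2 probe set have it: the second brightest read 7.76, 7.43 and 7.54 on the wild-type arrays. Of 8 trophoblast markers 2 fell, Krt8 (-2.52) and Krt7 (-1.91), and the sum was 2090 to 2215 against 898 to 972. The other 6 did not pass, with log2 fold changes from -0.27 for Cdx2 to 0.41 for Eomes, and Krt8, with a mean of 10.55 in wild-type and 8.03 in knockout arrays (log2), was the brightest of the 8 in wild-type arrays. Of 10 fibroblast markers 1 fell, Thy1 (-0.73), and 9 were under the overall median in each group; the sum was 145 to 168 against 123 to 140. Of 7 neural markers 3 fell and 1 rose, led by Olig2 (-2.34) and Pax6 (2.21), and the sum was 729 to 754 against 733 to 759. The part of these cells in the lower Ccnd2, Ccnd1 and Ccne1 levels was not tested, and in bulk RNA fewer cells of a type and less RNA per cell cannot be told apart.

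Neither kinase gene passed the test on its brightest probe set. Cdk4 encodes the main D cyclin partner in many tissues. It read 12.25, 12.16 and 12.24 on the wild-type arrays and 12.27, 12.27 and 12.28 on the knockout arrays. The knockout arrays lay just above the wild-type ones, with a log2 fold change of 0.05 (95% interval -0.09 to 0.20, adjusted p = 0.637). All 3 probe sets of Cdk4 gave values between 0.05 and 0.10 and none passed.

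Cdk6 encodes the second D cyclin-dependent kinase. Its brightest probe set read 7.19, 7.38 and 7.07 on the wild-type arrays and 7.50, 7.54 and 7.53 on the knockout arrays. All knockout arrays were above all wild-type arrays. The difference of 0.31 (log2, 95% interval 0.10 to 0.51) did not pass (adjusted p = 0.0621). A second probe set had the same difference of 0.31 with a smaller spread and passed (adjusted p = 0.0165), and the third, under the overall median, gave 0.03. The call for Cdk6 thus depends on the probe set, and its brightest one passed when wild-type replicate 2 was left out (adjusted p = 0.0274).

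Cdkn1b encodes p27, whose protein level is controlled largely by degradation. Its brightest probe set read 8.23, 8.22 and 7.66 on the wild-type arrays and 8.20, 8.36 and 8.28 on the knockout arrays. Wild-type replicate 3 was low, and the other wild-type arrays lay among the knockout ones. The log2 fold change was 0.24 (95% interval -0.12 to 0.61, adjusted p = 0.385) and 0.06 without wild-type replicate 3. A dimmer probe set rose by 0.35 (adjusted p = 0.0174), with wild-type values from 4.51 to 4.66 and knockout values from 4.85 to 4.98. Its wild-type mean, 4.57, was just under the overall median.

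**Figure D2:**
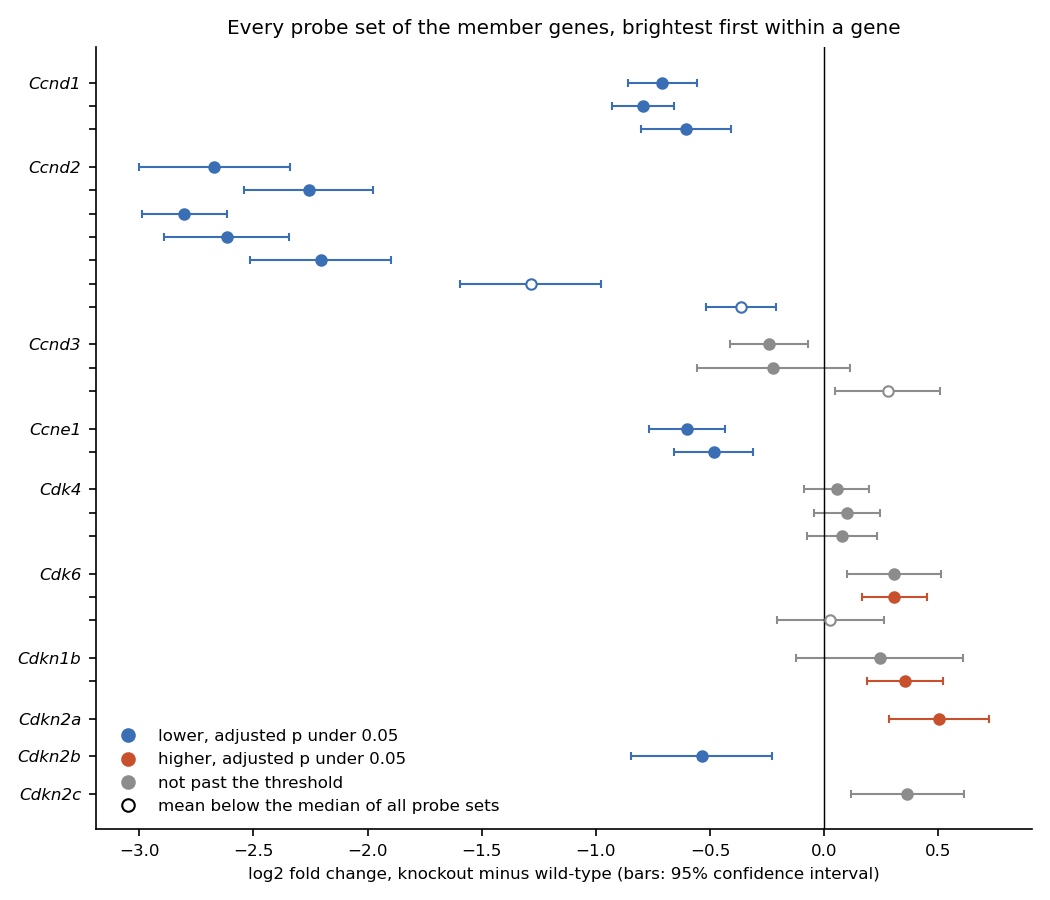
Log2 fold change of each of the 26 probe sets (horizontal axis, knockout minus wild-type), grouped by gene with the brightest first; bars are 95% confidence intervals from limma. All 7 probe sets of Ccnd2, all 3 of Ccnd1 and both of Ccne1 lie below 0, and the open symbols mark the 4 with a mean under the overall median.

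The INK4 locus on chromosome 4 holds Cdkn2a and Cdkn2b side by side. Cdkn2b encodes p15, while Cdkn2a encodes p16 and, from its own upstream start, the unrelated protein ARF, which protects p53 from MDM2. The windows before their starts are shown because the neighbours moved in opposite directions. With them stand the window of Ccne1, a cyclin gene that fell, and that of Cdk4, whose difference did not pass the test. Each is the 250 bases before a start in RefSeq (GRCm38.p6), on the strand of the gene. Capitals mark GGGCGG (the GC box) or CACGTG (the E box), searched on both strands.
Ccne1, chr7:38107491-38107740, minus strand: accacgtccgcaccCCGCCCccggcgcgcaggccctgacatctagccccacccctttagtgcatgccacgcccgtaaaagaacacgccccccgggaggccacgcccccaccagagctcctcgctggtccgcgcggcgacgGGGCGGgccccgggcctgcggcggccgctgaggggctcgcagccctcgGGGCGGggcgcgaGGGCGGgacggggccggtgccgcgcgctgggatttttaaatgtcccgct
Cdk4, chr10:127063285-127063534, plus strand: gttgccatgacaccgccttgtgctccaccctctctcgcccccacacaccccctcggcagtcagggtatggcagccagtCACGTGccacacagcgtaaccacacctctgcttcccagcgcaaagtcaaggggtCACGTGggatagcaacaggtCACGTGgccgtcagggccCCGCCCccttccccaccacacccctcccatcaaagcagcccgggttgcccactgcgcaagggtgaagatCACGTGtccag
Cdkn2a, upstream start, chr4:89294620-89294869, minus strand: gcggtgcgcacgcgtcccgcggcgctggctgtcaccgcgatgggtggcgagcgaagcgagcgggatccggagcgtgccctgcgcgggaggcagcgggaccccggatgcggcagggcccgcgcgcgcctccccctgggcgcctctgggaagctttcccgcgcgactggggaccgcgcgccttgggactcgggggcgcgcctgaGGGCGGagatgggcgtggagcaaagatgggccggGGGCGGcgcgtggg
Cdkn2a, downstream start, chr4:89282193-89282442, minus strand: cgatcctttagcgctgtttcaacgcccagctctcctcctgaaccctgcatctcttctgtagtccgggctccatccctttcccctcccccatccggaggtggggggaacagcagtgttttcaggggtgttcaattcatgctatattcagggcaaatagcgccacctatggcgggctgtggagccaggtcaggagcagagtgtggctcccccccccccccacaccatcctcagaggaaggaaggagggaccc
Cdkn2b, chr4:89311033-89311282, minus strand: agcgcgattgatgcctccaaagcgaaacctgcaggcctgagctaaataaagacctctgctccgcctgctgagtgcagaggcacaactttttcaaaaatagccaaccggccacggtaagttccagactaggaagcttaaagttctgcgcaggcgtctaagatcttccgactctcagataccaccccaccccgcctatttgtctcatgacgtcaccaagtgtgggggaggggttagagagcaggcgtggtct

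The windows differed in makeup. GC content was 76.0% before Ccne1, 78.4% before the upstream start of Cdkn2a, 60.0% before its downstream start, 53.6% before Cdkn2b and 64.4% before Cdk4, against a median of 52.4% over all 32851 windows in the table. Ccne1 held 4 GC boxes, the upstream Cdkn2a window 2 and Cdk4 1, a motif found in 32.7% of all windows. A window of Cdkn2c, which did not pass the test and is not shown, held 3. Cdk4 held 4 E boxes, the motif bound by MYC family factors, and 6.02% of all windows hold at least 1. No window shown held the AP-1 motif TGACTCA (4.46% of all windows), the ETS motif CCGGAAG (6.91%) or TATAAA (12.4%). Of E2F motifs only TTTCGCGC (0.256%) and TTTGGCGC (0.417%) were searched, and no window shown held either. Other forms were not counted, among them TTTCCCGC, which lies in the upstream Cdkn2a window. Such matches describe the letters only. Of the 10 genes, 8 had a window in the table, and Ccnd1 and Ccnd2 were not among them.

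Cdkn2a read 7.18, 6.88 and 6.92 on the wild-type arrays and 7.46, 7.55 and 7.48 on the knockout arrays. All knockout arrays were higher and close together. Cdkn2a thus differed by 0.50 (SE 0.09, adjusted p = 0.0121), and the call ended without knockout replicate 2 (adjusted p = 0.0547). The gene had 1 probe set, and which of its transcripts that reads is not told by the annotation table.

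Cdkn2b read 6.03, 6.08 and 6.50 on the wild-type arrays and 5.78, 5.58 and 5.63 on the knockout arrays. The groups did not overlap, and wild-type replicate 3 was well above its fellows. Cdkn2b thus differed by -0.54 (SE 0.13, adjusted p = 0.0370). This call ended with the replicate number as a block (adjusted p = 0.0643), with wild-type replicate 2 left out (0.0676) and with knockout replicate 1, 2 or 3 left out (0.0668, 0.125 and 0.115). Without wild-type replicate 3 the value was -0.39.

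Cdkn2c encodes p18, another INK4 inhibitor. It read 5.98, 5.76 and 5.69 on the wild-type arrays and 6.12, 6.08 and 6.33 on the knockout arrays. The knockout arrays were all higher, with the nearest arrays of the groups close to each other. The log2 fold change was 0.37 (95% interval 0.12 to 0.61) and did not pass (adjusted p = 0.0656), and it passed in 4 of the 13 alternative fits, 1 of which left out wild-type replicate 1 (adjusted p = 0.0276). For the related p19 gene Cdkn2d the log2 fold change was 0.07 (95% interval -0.10 to 0.23), which did not pass.

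Genes around the 10 were read from lists chosen by function. Of 23 genes of the RB-E2F pathway, 5 fell, 4 rose and 14 did not pass, with a median log2 fold change of -0.03. Tfdp1, which encodes the DP1 partner of E2F factors, fell by 0.67, E2f5 by 0.47 and the p21 inhibitor gene Cdkn1a by 0.44. The p57 inhibitor gene Cdkn1c rose by 0.73, the p130 gene Rbl2 by 0.51 and the p107 gene Rbl1 by 0.38. In either direction 39.1% of the list passed, against 18.9% of all genes. These shares are not matched for level, as 6553 of all 18193 genes had a wild-type mean under the overall median. In this list 0 genes were under it in both groups. The same was true of the 10 genes and of the E2F target and regulator lists below. Not all probe sets of these genes passed: 2 of 3 did for E2f5, 1 of 2 for Rbl2 and 2 of 4 for Rbl1. Rb1 itself had a log2 fold change of -0.43 (95% interval -0.94 to 0.07) and Cdk2 one of 0.08, and neither passed. Rb1 read 6.42, 7.04 and 7.35 on the wild-type arrays and 6.49, 6.56 and 6.47 on the knockout arrays. The overlap for Rb1 thus came from wild-type replicate 1, the lowest of the 6 arrays. The count that rose was 2 when wild-type replicate 2 or any of the 3 knockout arrays was left out. Without wild-type replicate 1 the count that fell was 7.

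E2F target genes, which serve DNA replication, passed the test at a rate near that of all genes, 16.7% against 18.9%. Of 24 measured, 3 fell, 1 rose and 20 did not pass, and the median log2 fold change was -0.00078. The ribonucleotide reductase gene Rrm2 fell by 0.47, the thymidine kinase gene Tk1 by 0.43 and the uracil-DNA glycosylase gene Ung by 0.42. Orc1, which encodes a subunit of the origin recognition complex, rose by 0.42. With an intensity trend in the fit 7 fell and 2 rose, but the 18.9% of all genes is not from that fit.

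Of 18 measured regulators of D cyclins and inhibitors, 3 fell, 1 rose and 14 did not pass, with a median log2 fold change of 0.01. The share that passed, 22.2%, was near the 18.9% of all genes. Mdm2, whose product marks p53 for degradation, fell by 0.66, with 2 of 3 probe sets passing. The F-box protein gene Fbxo4 fell by 0.34 and the MYC family gene Mycn by 0.24, each on 1 probe set, of 2 and 3. Bmi1, which encodes a Polycomb protein known to repress Cdkn2a, rose by 0.61 on 1 of 2 probe sets. Myc had a log2 fold change of -0.40 (95% interval -0.66 to -0.13), which did not pass. The count that fell was 1 without wild-type replicate 1 or 2 or knockout replicate 2 or 3, while 2 rose once wild-type replicate 1 was dropped and 0 rose once knockout replicate 1 or 2 was dropped.

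Other cyclin genes passed at a rate near that of all genes, 20% against 18.9%. Of 15 measured, 1 fell and 2 rose, with a median log2 fold change of 0.05. Ccng2, which encodes the growth-inhibitory cyclin G2, read 6.04, 5.94 and 6.06 on the wild-type arrays and 7.16, 7.09 and 7.25 on the knockout arrays. It was thus higher on every knockout array, and differed by 1.15 (SE 0.07, adjusted p = 0.000125). The mitotic cyclin gene Ccnb2 rose by 0.26. Ccny fell by 0.29 on its brightest probe set, while another of its 7 probe sets rose. In this list 2 fell without wild-type replicate 1 and 0 without any other array, and 1 rose when any array but wild-type replicate 1 was left out.

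**Figure D3:**
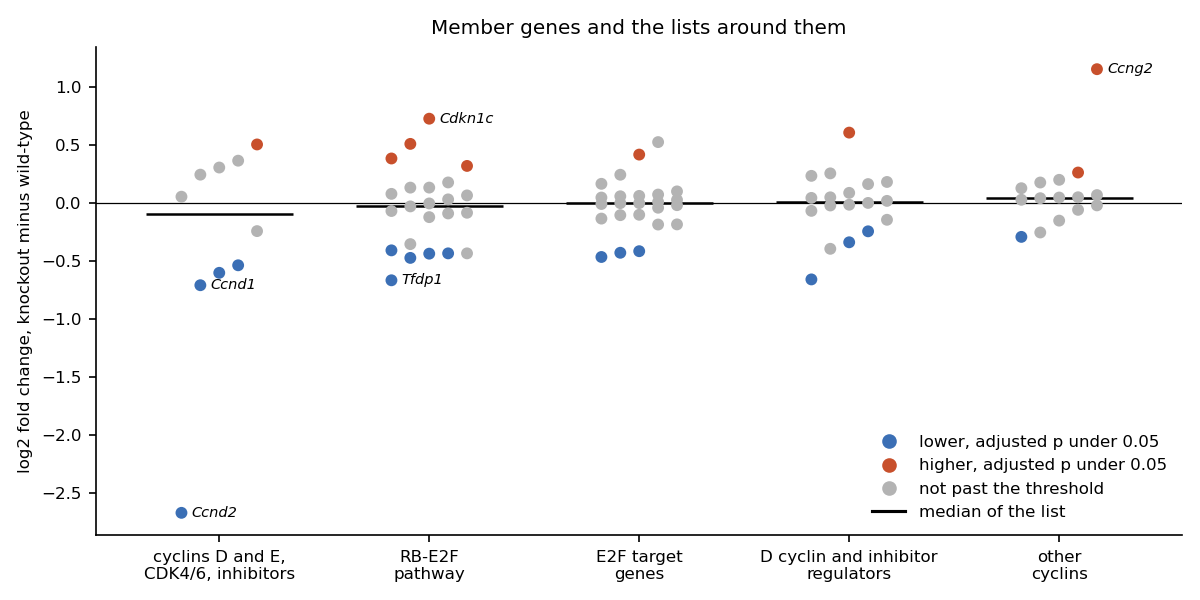
Log2 fold change (vertical axis, knockout minus wild-type) of the 10 genes and of 4 lists of related genes, 1 point per gene; black lines are list medians and coloured points passed the test. Ccnd2 at -2.67 lies outside the range of every list, whose lowest gene is Tfdp1 at -0.67 and highest Ccng2 at 1.15.

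Neighbours along the chromosome were read as a description, 5 measured genes on each side where the chromosome held them. None of the 10 neighbours of Ccnd2 on chromosome 6 passed the test, and their log2 fold changes lay between -0.27 and 0.23. The nearest, Tigar and 9330179D12Rik, had values of -0.25 and 0.02. Ccnd1 on chromosome 7 had 8 measured neighbours, 2 of which fell, with a median of -0.06. The larger fall was that of the growth factor gene Fgf15 (-1.87), on the side of Ccnd1 where Fgf4 also lies. Of the genes next to Ccne1, 1600014C10Rik fell by 0.48 on one side and Uri1 rose by 0.31 on the other, and Gm28453, further out, rose by 0.93. At the INK4 locus no neighbour apart from Cdkn2a and Cdkn2b themselves passed.

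Around the other genes, 3 fell and 2 rose near Ccnd3, from AI661453 (-1.02) to Usp49 (0.33). Near Cdk4 only B4galnt1 (-0.54) passed, and near Cdk6 only Rbm48 (0.38). Gpr19 (0.61) and Crebl2 (0.42) rose near Cdkn1b. Near Cdkn2c, Ttc39a (-0.40) and Bend5 (-1.49) fell, and Rnf11 (0.36) and Elavl4 (0.65) rose. The median of the neighbours lay between -0.16 and 0.16 for each of the 10 genes.

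**Figure D4:**
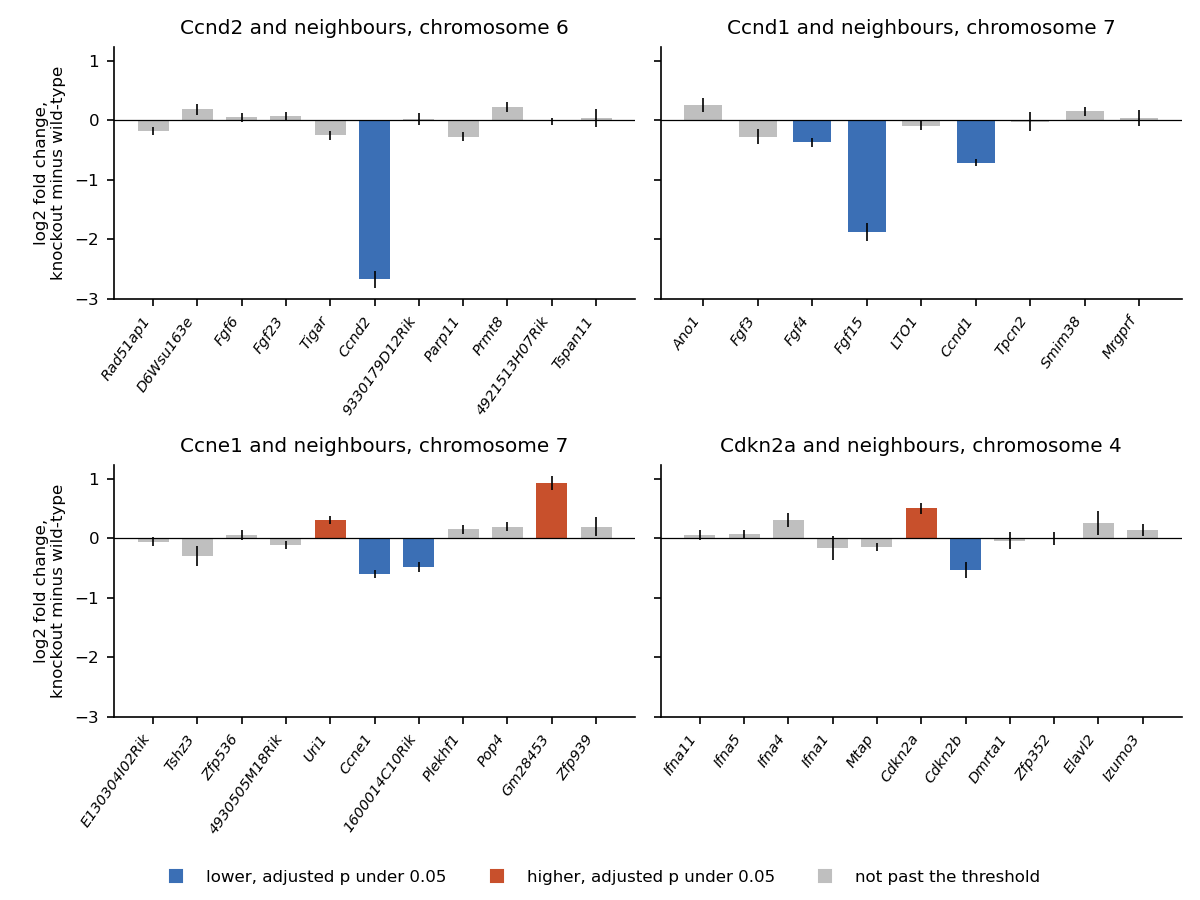
Log2 fold change (vertical axis, knockout minus wild-type) of Ccnd2, Ccnd1, Ccne1 and Cdkn2a with their nearest measured genes in chromosome order; bars are estimates, lines their standard errors, and colour marks genes past the test. Ccnd2 stands alone among its neighbours, whereas Ccnd1 has 2 lower neighbours and Cdkn2a and Cdkn2b point in opposite directions.

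Genes with a profile over the 6 arrays most like that of Ccnd2 were sought by the root mean square difference of mean-centred values. The 4 nearest were the histidine ammonia-lyase gene Hal (0.10 log2 units), the WNT antagonist gene Dkk1 (0.12), the BMP modulator gene Bmper (0.12) and the calcium-binding protein gene S100a6 (0.12). Their log2 fold changes were -2.76, -2.79, -2.70 and -2.70. In each of them wild-type replicate 3 was the lowest of its group, as on the brightest probe set of Ccnd2. The choice by profile favours such a match, so it is not a separate result. With 6 arrays in 2 groups this likeness mostly restates a fall of similar size.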

How the data were processed

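Trizol-extracted total RNA was labelled as biotinylated cRNA by the Affymetrix protocol, per the labels. The values used are log2 expression values as the authors deposited them, 1 column for each of 6 arrays; log2 was inferred from their range. Per the submitters' processing notes, RMA and MAS5 are named, with neither role nor version known. RMA, where used, is known to compress differences of dim probe sets. The number of arrays limits the precision, and there were 0 columns of other samples.

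After leaving out 64 array controls, 45037 probe sets were tested on the values as deposited, with no low-value filter, using limma 3.58.1 in R 4.3.3 (lmFit, eBayes, two-sided, Benjamini-Hochberg over all probe sets, threshold 0.05; 4 residual and 3.08 prior degrees of freedom). Fold changes are knockout minus wild-type. Symbols came from the platform annotation, updated through Entrez identifiers to RefSeq (GRCm38.p6, 34741 of 34945 single-symbol probe sets matched). RefSeq served for gene order and for sequences, which carry its build. The fit was tested on simulated data.

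The 10 genes, the lists and the tests were chosen with earlier results of these data known. Named genes were the 10 genes and Med23, up to 3 called genes per direction and list, and up to 2 per marker list. Some of the called neighbours, the nearest neighbours of Ccnd2 and the 4 profiles nearest to it were named too. Members of the lists with no call that are given values were named after their values were seen, as were the Y-linked genes. These members are Ccne2, Cdkn2d, Rb1, Cdk2, Myc, Cdx2, Eomes, Dppa5a and Esrrb. Alternatives were quantile normalization, median centring, a filter on dim probe sets, an intensity trend, array weights, the replicate block, leaving out each array and averaging the probe sets of a gene.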

Additional observations from a re-analysis of the deposited data

How the results depend on the processing

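No result changed direction under any alternative tried, and Ccnd1, Ccnd2 and Ccne1 passed the test in all 13. Cdkn2a passed in 12 and Cdkn2b in 8, while Ccnd3, Cdk6 and Cdkn2c passed in 4 each, Cdkn1b in 1 and Cdk4 in 0. The count of the 10 genes that fell stayed within 1.5 times, at 3 to 5 with 1 array left out. The count that rose, 1, was 3 with dim probe sets left out, 2 with an intensity trend, 2 with array weights and 4 with the mean of all probe sets of a gene, and 0 to 2 with 1 array left out. Of the probe sets of these genes, 5 rose with dim probe sets left out, which kept 22 of the 26, and 0 to 4 rose with 1 array left out, against 3; between 11 and 14 fell. Among regulators of D cyclins and inhibitors 2 rose with dim probe sets left out, with an intensity trend and with array weights, and with 1 array left out 1 to 2 fell and 0 to 2 rose. Among E2F target genes 5 fell and 3 rose with dim probe sets left out, 7 fell and 2 rose with an intensity trend, and 2 rose with the mean of all probe sets. In the RB-E2F pathway 4 to 7 fell and 2 to 4 rose with 1 array left out. Of other cyclins 0 fell with the mean of all probe sets, and with 1 array left out 0 to 2 fell and 1 to 2 rose. The shares of all genes given above are those of the main fit, so they cannot be set beside these counts. The cause of these moves was not tested. The filter left fewer probe sets to test and also changed standard errors, that of Ccnd1 from 0.064 to 0.053.

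No pairing of the arrays by replicate number was seen: deviations from the group means correlated at -0.13, -0.06 and 0.00083 for numbers 1, 2 and 3. Arrays of unlike number correlated between -0.11 and 0.12, and with 3 arrays per group a pairing could be missed. With the replicate block 3 of the 10 genes fell and 1 rose, 12 probe sets fell and 1 rose, and 0 of the other cyclins fell and 1 rose. Med23 kept its log2 fold change of -1.52 in that fit. Paired over arrays, Ccnd2 minus Ccnd1 kept its difference of -1.96, with an exact p of 0.25, the smallest for 3 pairs.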
